A study of Rattus norvegicus with 6 samples.

Results

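Matrix metalloproteinases (MMPs) and their inhibitors, the TIMPs, were followed in mesenchymal stem cells (MSCs) from rat bone marrow, the stromal precursors of bone, cartilage and fat cells. The genes were 7 MMPs (Mmp2, Mmp3, Mmp11, Mmp12, Mmp13, Mmp14 and Mmp19) and 3 TIMPs (Timp1, Timp2 and Timp3), taken by gene name, and the 10 made up that many of 33589 rows in the expression table. Both groups were the same cell type, held for 48 h in a gel labelled SA hydrogel. The soft group was in gel of 2 kPa and the stiff group in gel of 18 kPa, with 3 polyA RNA libraries each. The sources used here give no strain or animal age, and do not say whether replicates came from separate cultures or animals. The series' design text speaks of 4 replicates per group, and 3 per group were analysed here. The p-values therefore reflect the spread between these libraries alone, which may be technical.

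MMPs are zinc-dependent proteases that cut extracellular matrix. Most are secreted as inactive proenzymes whose prodomain holds the active site shut until it is cleaved or displaced. TIMPs bind the active site of the mature enzymes. On the cell surface the membrane-anchored Mmp14 protein (MT1-MMP) and Timp2 together capture the proenzyme of Mmp2, which a neighbouring Mmp14 molecule then cleaves, so Timp2 takes part in activation as well as inhibition. Stromal cells are a major source of Mmp2, Mmp14 and Timp2, and Mmp12 is best known from macrophages. Messenger RNA levels, the quantity measured here, do not give the amount of active enzyme.

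Mmp13 (collagenase 3), Mmp12 (macrophage elastase) and Mmp3 (stromelysin 1) are neighbours on rat chromosome 8, and their promoters are shown because the same short motifs precede each of them, while Mmp13 stood well above Mmp12 and Mmp3 in level. The sequences are the 250 bases before the annotated start of each gene from RefSeq (build GRCr8), written 5′ to 3′ in the direction of the gene, with capitals marking an AP-1 motif (TGAGTCA or, on the other strand, TGACTCA) and a TATA motif (TATAAA or TTTATA). The windows are chr8:12782579-12782828, plus strand, chr8:12866402-12866651, plus strand and chr8:12925031-12925280, plus strand. The promoter of Timp3, at chr7:19459559-19459808, minus strand, stands beside them as a window with neither motif.
Mmp13: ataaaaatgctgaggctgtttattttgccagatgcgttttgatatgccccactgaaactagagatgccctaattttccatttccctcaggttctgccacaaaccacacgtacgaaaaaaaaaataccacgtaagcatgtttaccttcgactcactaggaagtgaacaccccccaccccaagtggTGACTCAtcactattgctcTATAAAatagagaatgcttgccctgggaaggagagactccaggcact
Mmp12: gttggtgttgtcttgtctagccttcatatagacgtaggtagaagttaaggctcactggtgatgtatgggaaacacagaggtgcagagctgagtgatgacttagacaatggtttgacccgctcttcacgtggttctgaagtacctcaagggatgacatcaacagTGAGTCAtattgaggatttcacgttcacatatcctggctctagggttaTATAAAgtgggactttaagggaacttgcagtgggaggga
Mmp3: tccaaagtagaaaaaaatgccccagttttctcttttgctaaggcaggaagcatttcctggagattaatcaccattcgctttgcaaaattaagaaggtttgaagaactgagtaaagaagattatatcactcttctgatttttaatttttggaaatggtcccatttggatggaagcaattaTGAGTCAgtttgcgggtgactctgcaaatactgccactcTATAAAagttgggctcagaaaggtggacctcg
Timp3: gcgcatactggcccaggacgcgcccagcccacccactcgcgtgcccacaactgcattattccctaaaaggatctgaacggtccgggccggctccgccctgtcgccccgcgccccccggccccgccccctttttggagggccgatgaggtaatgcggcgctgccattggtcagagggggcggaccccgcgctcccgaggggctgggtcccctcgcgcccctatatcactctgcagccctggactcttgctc

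Each of the 3 MMP windows held 1 AP-1 motif and 1 TATA motif. The AP-1 motif began 66 bases before the start in Mmp13, 87 bases in Mmp12 and 71 bases in Mmp3, and the TATA motif 47, 39 and 32 bases before it. The motifs did not overlap. Over 33469 promoter windows of the same length, 4.05% held the AP-1 motif, 12.9% the TATA motif and 0.574% both. RefSeq windows were found for 7 of the 10 genes; Mmp2, Mmp14 and Mmp19 had none. The windows of Timp1, Timp2, Timp3 and Mmp11 had neither motif and carried 1, 1, 3 and 3 GC boxes (GGGCGG or CCGCCC, found in 30.5% of all windows). Such matches describe the letters and do not show binding.

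Levels were read as FPKM, fragments scaled to gene length and to library size, a scale on which genes of different length can be compared. Recovered read totals were between 14966354 and 16711527 per library. In soft gel the order of mean levels was Mmp2, Mmp13, Timp2, Timp1, Mmp14, Mmp19, Mmp12, Mmp3 and Timp3. Mmp2 (gelatinase A) stood at 3002.7 ± 135.4 FPKM (SD, n = 3) and Timp3 at 32.1 ± 1.04 FPKM. Among neighbours in this order the ranges of libraries overlapped for Timp2 with Timp1 and for Mmp12 with Mmp3, and were apart for the others. In stiff gel Timp1 stood above Timp2 and Mmp3 above Mmp12, and of the neighbours only Mmp3 and Mmp12 overlapped. Mmp11 (stromelysin 3), which is activated inside the cell by furin, was listed at 0 in all 6 libraries. For a gene of its length 3 reads correspond to about 0.12 to 0.14 FPKM.

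**Figure D1:**
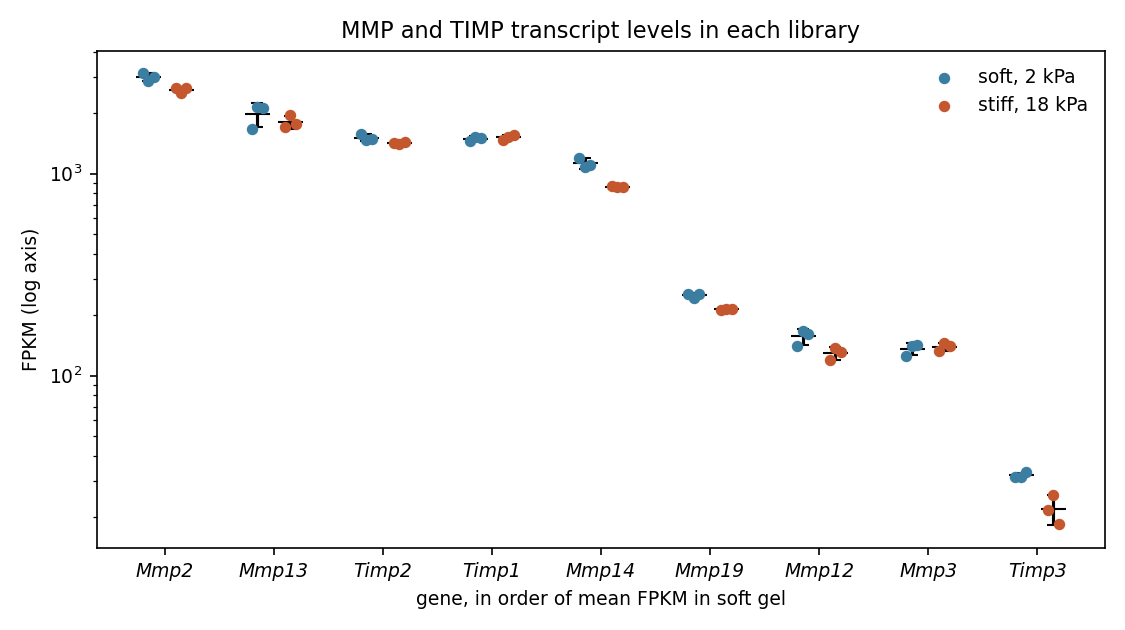
FPKM (log axis) of the 9 genes with a value above 0 in each library, with soft gel in blue and stiff gel in orange; points are libraries, horizontal marks are group means and bars are SD over 3 libraries. Mmp14, Mmp19, Mmp2, Timp2, Mmp12 and Timp3 have all stiff libraries below all soft ones, while Mmp13, Timp1 and Mmp3 overlap.

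The comparison of stiff with soft gel asks how the stiffness around the cells relates to their gene expression. Mmp14, the membrane-type collagenase, fell in stiff gel, and it was the only one of the 9 tested genes that passed the test. Mmp19, Mmp2, Mmp12, Timp2 and Timp3 also had all 3 stiff libraries below all 3 soft ones without passing it. Mmp13, Mmp3 and Timp1 overlapped between the groups.

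Differences were tested with limma on log2(FPKM + 1) over the 12713 genes whose mean reached 1 FPKM, with Benjamini-Hochberg adjustment at 0.05; Mmp11 did not reach that level and was not tested. Over all tested genes, 0.425% were called lower and 1.01% higher in stiff gel (1.43% in either direction), that is 54 and 128 genes. With each library scaled to the same FPKM sum the numbers were 68 lower and 88 higher, and after quantile normalization 68 and 103. Of the 9 genes here, 1 was called lower and none higher; at an unadjusted p under 0.05, 5 were lower and none higher, where 6.95% and 8.46% of all tested genes were. Voom on recovered reads called 4 lower and none higher, against 0.912% and 1.65% of all tested genes. The libraries of the groups were parted with stiff below soft in 6 of the 9, against 10.9% of all tested genes, and with stiff above soft in none, against 11.7%. With equal FPKM sums the same 6 genes were parted. The median log2 fold change of the 9 genes was -0.21, against 0.0013 over all tested genes. These genes were picked with earlier results of the same libraries known, so the counts describe them and are no independent evidence of a direction.

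**Figure D2:**
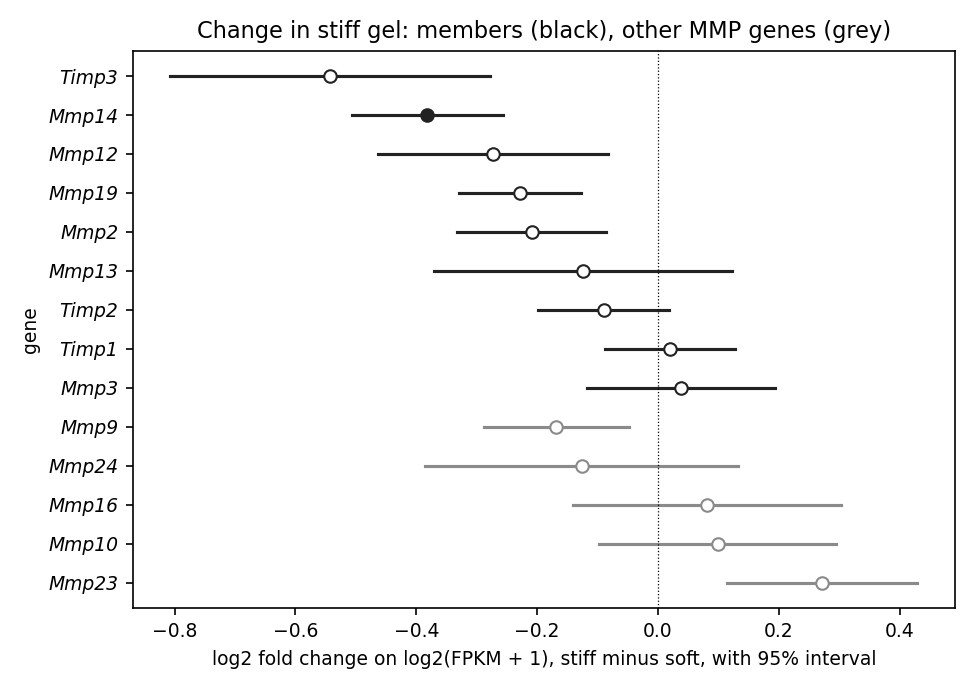
Log2 fold change of stiff minus soft gel with its 95% interval (limma) for the 9 tested genes in black and 5 other MMP genes over the level filter in grey; a filled point passed the adjusted threshold of 0.05. Mmp14 is the only filled point, and the intervals of Timp3, Mmp12, Mmp19 and Mmp2 lie below 0.

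Mmp14 (ENSRNOG00000010947, chromosome 15 from 33074441 to 33083655) encodes the protease that cuts collagen at the cell surface and activates Mmp2. Positions of genes are those of the table, which names no build. Its FPKM was 1200.7, 1073.6 and 1100.7 in the soft replicates (1 to 3 in order, here and below) and 869.9, 858.0 and 859.1 in the stiff ones. The stiff libraries lay close together and well below the lowest soft one. The means were 1125.0 ± 67.0 and 862.3 ± 6.57 FPKM (SD, n = 3 per group), so the stiff mean was 0.767 times the soft mean, with a log2 fold change of -0.38 (SE 0.0535, 95% interval -0.51 to -0.26, limma adjusted p = 0.0236). Between 31578 and 49120 reads lay behind each value. The highest soft library was replicate 1, the library with the smallest share of mitochondrial reads, 2.15%, where the remaining 5 had 2.85% to 3.33%; without it the log2 fold change was -0.33 and the limma adjusted p 0.0225. The call was lost when any one of the other 5 libraries was left out (limma adjusted p = 0.0594 without soft replicate 2, 0.108 without soft replicate 3, and 0.0953, 0.0836 and 0.110 without stiff replicates 1, 2 and 3). It was also lost with no level filter (0.103) and with no intensity trend in the variance (0.0682), while the log2 fold change lay between -0.50 and -0.33 over all 16 alternatives.

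Mmp2 (ENSRNOG00000016695, chromosome 19 from 15542765 to 15570611) encodes gelatinase A, which cuts denatured collagen and basement membrane collagen and is the main proenzyme activated by Mmp14. Its FPKM was 3134.8, 2864.2 and 3009.2 in the soft replicates and 2643.9, 2499.0 and 2646.3 in the stiff ones. Every stiff library was below every soft one, but the gap between the groups was smaller than the range of the soft libraries. The log2 fold change was -0.21 (SE 0.0523, 95% interval -0.33 to -0.09), and the limma adjusted p of 0.122 missed the threshold. With voom on recovered reads and with array weights it passed, at adjusted p of 0.0382 and 0.0369.

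Timp2 (ENSRNOG00000003148, chromosome 10 from 107338465 to 107386072) encodes the inhibitor that links Mmp14 to the Mmp2 proenzyme. Its FPKM was 1577.9, 1461.1 and 1491.3 in the soft replicates and 1418.2, 1406.2 and 1429.6 in the stiff ones. The groups did not overlap, although soft replicate 2 was close to stiff replicate 3. The log2 fold change was -0.09 (95% interval -0.20 to 0.02, limma adjusted p = 0.413). The interval covered 0.

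Within each library the ratio of Mmp14 to Timp2 FPKM does not depend on how that library was scaled. It was 0.761, 0.735 and 0.738 in the soft replicates and 0.613, 0.610 and 0.601 in the stiff ones. All stiff ratios were below all soft ratios, with means of 0.745 ± 0.0143 and 0.608 ± 0.00645 (SD, n = 3 per group). The ratio of Mmp2 to Timp2 was 1.99 ± 0.0288 in soft and 1.83 ± 0.0469 in stiff gel. No test was made on these ratios.

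Summed over the 7 MMPs, the level was 6645.6 ± 130.3 FPKM in the soft group and 5744.8 ± 64.6 in the stiff group (SD, n = 3 each), a ratio of 0.864. Summed over the 3 TIMPs it was 3032.8 ± 22.6 and 2951.3 ± 45.7 FPKM, a ratio of 0.973. The ratio of the sums was 2.19 ± 0.0538 in soft and 1.95 ± 0.0247 in stiff gel. Mmp2 alone supplied 45.2% of the MMP sum in either group, Mmp13 29.7% in soft and 31.4% in stiff gel, and Mmp14 16.9% and 15.01%. These sums rest on the few most abundant genes and carry no test.

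**Figure D3:**
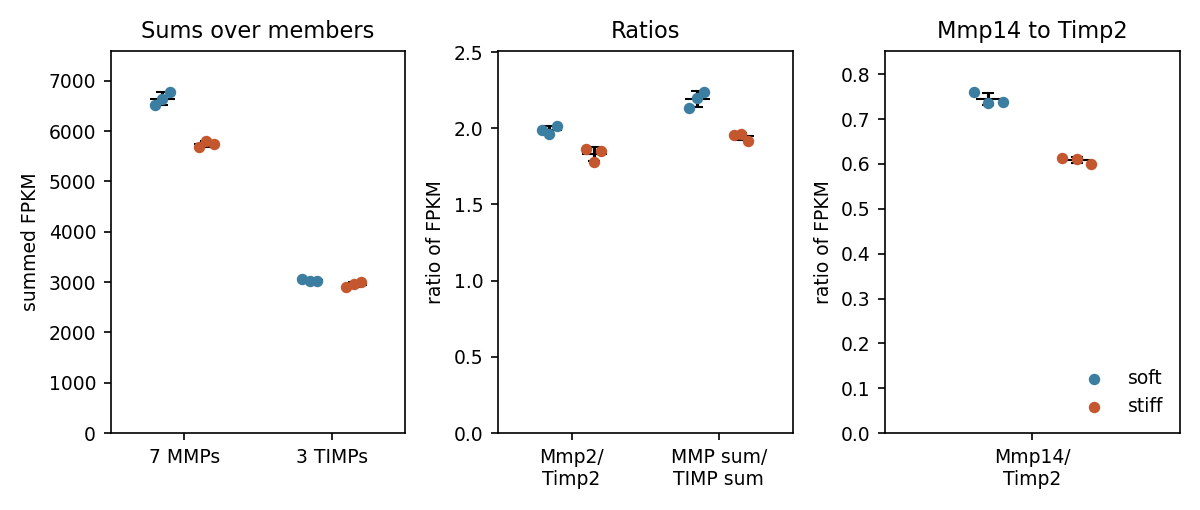
Left, summed FPKM of the 7 MMPs and of the 3 TIMPs; middle, ratios of Mmp2 to Timp2 and of the sums; right, ratio of Mmp14 to Timp2, each per library (points) with group mean and SD. The ratio of Mmp14 to Timp2 lies between 0.735 and 0.761 in soft and between 0.601 and 0.613 in stiff gel.

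Timp3 (ENSRNOG00000004303, chromosome 7 from 23544215 to 23594133) encodes an inhibitor that stays bound to the matrix and also inhibits ADAM proteases. Its FPKM was 31.4, 31.6 and 33.3 in the soft replicates and 21.5, 25.8 and 18.4 in the stiff ones. The soft libraries were close to each other and the stiff ones scattered below them. Its stiff mean was 0.683 times the soft mean, and its log2 fold change of -0.54 (SE 0.113, 95% interval -0.81 to -0.28) was the largest in size among the 9 genes in this fit. The limma adjusted p of 0.0784 missed the threshold. The gene passed without stiff replicate 2 (0.0473), with voom (0.0274) and with array weights (0.0131). Between 537 and 946 reads lay behind each value.

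Timp1 (ENSRNOG00000010208, chromosome X from 1364786 to 1369384), a soluble inhibitor induced by many growth factors and cytokines, was at 1448.0, 1520.1 and 1503.6 FPKM in the soft replicates and 1463.1, 1525.4 and 1545.7 FPKM in the stiff ones. The groups overlapped. The log2 fold change was 0.02 (95% interval -0.09 to 0.13, limma adjusted p = 0.884), and its sign turned with equal FPKM sums, quantile normalization or array weights, or without soft replicate 1. All 3 TIMP genes overlap another gene in the table's annotation. Timp1 and Timp3 lie inside Syn1 and Syn3, synapsin genes on the opposite strand, which stood at 0.562 and 0.330 FPKM in soft gel, and Timp2 contains Cep295nl, on the same strand, at 2.32 FPKM in soft gel. The sources used here do not say whether reads were counted by strand, so reads shared by such pairs cannot be told apart.

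Mmp19 (ENSRNOG00000006778, chromosome 7 from 3216497 to 3224201) encodes a secreted MMP that cuts basement membrane components. Its FPKM was 252.3, 243.5 and 253.5 in the soft replicates and 211.5, 214.5 and 213.1 in the stiff ones. The groups were well apart, with little spread in stiff gel. The stiff mean was 0.853 times the soft mean (log2 fold change -0.23, SE 0.0428, 95% interval -0.33 to -0.13), and the limma adjusted p of 0.0569 was just over the threshold. The gene passed with equal FPKM sums (0.0323), after quantile normalization (0.0256), with genes of at least 5 FPKM alone (0.0460), with array weights (0.0105) and with voom (0.0321).

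Of the 3 neighbours on chromosome 8, Mmp12 had its groups apart and the other two did not. Mmp12 (ENSRNOG00000030187, chromosome 8 from 5606592 to 5616493), whose protein cuts elastin, was at 140.7, 167.0 and 161.1 FPKM in the soft replicates and 119.1, 136.4 and 131.5 FPKM in the stiff ones. The lowest soft library and the highest stiff one were close, and the log2 fold change was -0.27 (95% interval -0.46 to -0.08, limma adjusted p = 0.184). It passed with array weights alone (0.0229).

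Mmp13 (ENSRNOG00000008478, chromosome 8 from 5522739 to 5533018), the main interstitial collagenase of rodent bone, was at 1669.3, 2144.5 and 2115.8 FPKM in the soft replicates and 1704.4, 1957.4 and 1753.8 FPKM in the stiff ones. Soft replicate 1 was the lowest of all 6 libraries, so the groups overlapped. The log2 fold change was -0.12 (95% interval -0.37 to 0.12, limma adjusted p = 0.631). Without soft replicate 1 it was -0.24 and did not pass (0.175).

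Mmp3 (ENSRNOG00000032626, chromosome 8 from 5676665 to 5698579), which cuts many matrix proteins and activates other proMMPs, was at 124.4, 139.7 and 141.7 FPKM in the soft replicates and 132.1, 144.9 and 139.4 FPKM in the stiff ones. The groups overlapped, again with soft replicate 1 lowest. The log2 fold change was 0.04 (95% interval -0.12 to 0.19, limma adjusted p = 0.839), and its sign turned under the same 4 settings as that of Timp1.

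Around these 3 genes the table lists 6 further MMP genes within 371 kb of the start of Mmp13. Mmp10 (stromelysin 2), about 212 kb away, had 14.1 ± 1.55 FPKM in the soft group and 15.1 ± 0.262 in the stiff group (SD, n = 3 each). Mmp8 (neutrophil collagenase) reached at most 0.254 FPKM in any library, Mmp7 and Mmp27 had a value above 0 in 1 library each, and Mmp1 and Mmp20 were listed at 0 throughout. Within the cluster mean levels thus ran from 1890.9 FPKM for Mmp13 down to 0. The promoter windows of Mmp10, Mmp7 and Mmp1 also held both the AP-1 and the TATA motif, so the pair of motifs printed above was present in cluster genes at high level and in cluster genes at or near 0. How the authors' counting treated reads of near-identical stretches shared by these paralogs is not known, and such reads could affect their levels.

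**Figure D4:**
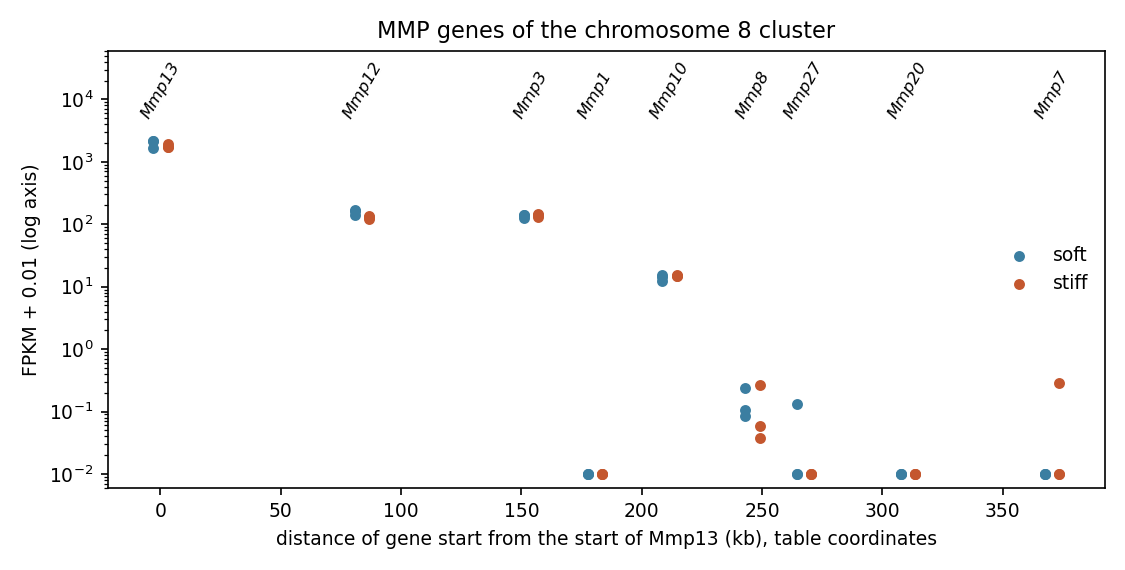
FPKM + 0.01 (log axis) of the 9 MMP genes of the chromosome 8 cluster in each library, against the distance of the gene's start from that of Mmp13 in kb, with soft gel in blue and stiff gel in orange. Mmp13 stands highest, Mmp12 and Mmp3 have means of 142.6 and 137.1 FPKM, and Mmp1 and Mmp20 sit at the added 0.01.

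Of 16 other MMP and TIMP genes, 15 had a row (Mmp25 was not analysed here) and 5 passed the level filter. None was called by limma or by voom. At an unadjusted limma p under 0.05 there was 1 in each direction. The median log2 fold change of the 5 was 0.08, with 3 above 0 and 2 below. Mmp9 (gelatinase B), abundant in macrophages and osteoclasts, had 263.4 ± 13.3 FPKM in the soft group and 234.1 ± 2.02 in the stiff group (log2 fold change -0.17, limma adjusted p = 0.190). Mmp23, a membrane-bound member, was at 38.2 ± 2.95 and 46.2 ± 1.38 FPKM (0.27, limma adjusted p = 0.1197), with all stiff libraries above the soft ones; it was called higher with array weights and without soft replicate 1. Mmp16 (MT3-MMP) was at 8.67 and 9.22 FPKM and Mmp24 (MT5-MMP) at 2.47 and 2.19 FPKM, and Mmp15 and Mmp17, also membrane-type MMPs, were under the filter. Mmp14 stood above all 4 in every library. Timp4 averaged 1.04 FPKM in the soft group and 0.731 in the stiff group, under the filter.

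Genes that activate, inhibit or clear MMPs were read from the same fit. Of the 16 such genes reported here, none was called by limma or voom (1 higher and 3 lower at an unadjusted p under 0.05), and the median log2 fold change of -0.04 turned positive, to 0.0061 and 0.0046, with array weights and without soft replicate 1. Cd63, a tetraspanin that binds the Timp1 protein, was the most abundant, at 955.2 ± 42.8 FPKM in the soft group and 980.8 ± 62.0 in the stiff group (limma adjusted p = 0.829). Furin and Reck were singled out after their values were seen, for their direct links to these proteases. Furin, which cleaves the Mmp14 prodomain, was at 197.3 ± 9.82 and 175.9 ± 7.07 FPKM (limma adjusted p = 0.2295). Lrp1, an endocytic receptor that takes up MMPs and TIMPs, was at 616.7 ± 66.7 and 496.1 ± 41.9 FPKM (limma adjusted p = 0.178). Reck, a membrane-anchored MMP inhibitor, was at 29.9 ± 1.32 and 34.0 ± 1.41 FPKM (limma adjusted p = 0.222). Furin and Lrp1 were lower and Reck higher in all stiff libraries than in any soft one, but none passed.

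Of 11 tested AP-1, ETS and Runx2 genes, whose proteins bind MMP promoters, none was called by limma or voom (2 lower and none higher at an unadjusted p under 0.05; median log2 fold change -0.13). The most abundant were Junb, with 153.3 ± 17.5 FPKM in the soft group and 135.5 ± 11.1 in the stiff group, and Jund, at 93.9 ± 12.6 and 99.2 ± 11.3 FPKM. The 2 lower at an unadjusted p were Jun and Fos, named after their values were seen. Jun was at 37.8 ± 2.42 and 32.3 ± 2.19 FPKM (limma adjusted p = 0.215). Fos was at 12.4 ± 0.228 and 10.9 ± 0.388 FPKM (limma adjusted p = 0.230). Of 15 tested matrix genes whose products MMPs cut, 1 rose and none fell (2 higher and 3 lower at an unadjusted p under 0.05; median -0.05). The gene that rose was Tnc (tenascin C), from 61.1 ± 2.35 to 82.0 ± 3.84 FPKM (0.42, limma adjusted p = 0.0220); of the 6 fits that left out 1 library it passed only without soft replicate 1. Col4a1, a basement membrane collagen chain named here after its value was seen, was at 216.7 ± 12.4 and 176.9 ± 8.37 FPKM (limma adjusted p = 0.0794) and was called lower with voom, quantile normalization and array weights. Of the other collagen chains listed, Col3a1, Col1a1 and Col5a1 had higher means in stiff gel, and Col1a2 and Col4a2 lower ones. The most abundant were Col3a1, at 4272.6 and 4684.0 FPKM (limma adjusted p = 0.307), and Col1a1, at 3061.5 and 3579.3 FPKM (limma adjusted p = 0.334). Of 8 ADAM proteases, some of which Timp3 inhibits, none was called by limma or voom (1 lower and none higher at an unadjusted p under 0.05; median -0.08). Adam12 was at 100.1 ± 8.24 and 86.8 ± 9.003 FPKM and Adam17, the main shedding protease for TNF, at 59.0 ± 2.67 and 62.5 ± 3.04 FPKM. Of the 8 ADAM genes, 4 had all stiff libraries below all soft ones and none the reverse. The counts were 5 and 2 of the 15 matrix genes, and 4 and 0 of the 11 AP-1, ETS and Runx2 genes. For the 16 genes that activate, inhibit or clear MMPs they were 2 and 2. Over all tested genes the shares were 10.9% and 11.7%.

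**Figure D5:**
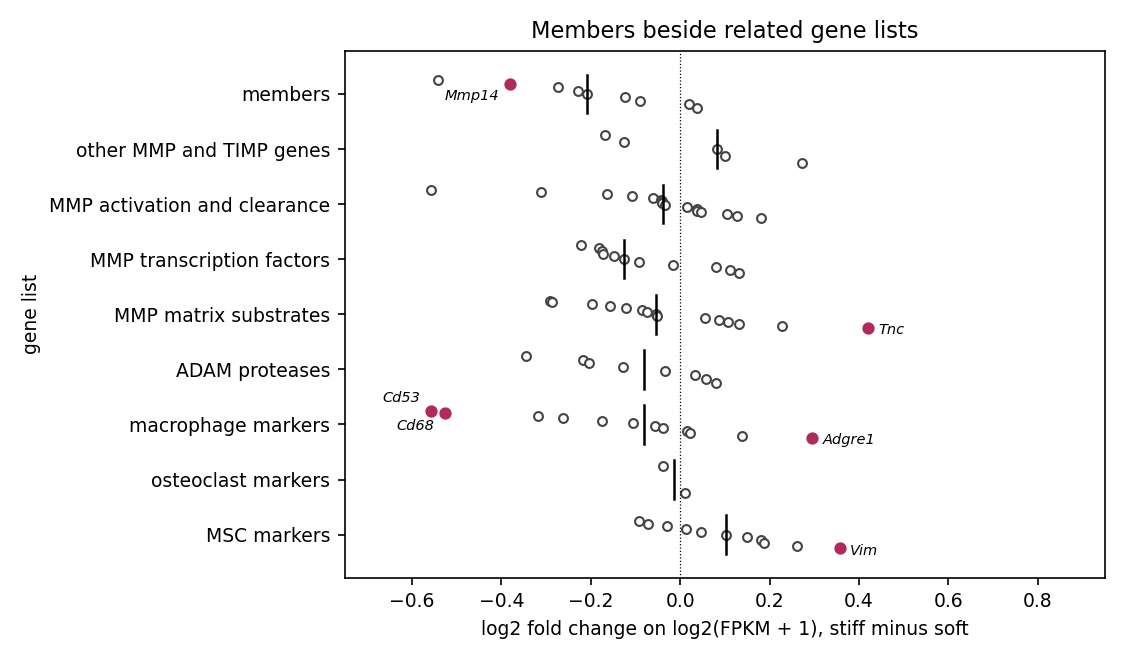
Log2 fold change of stiff minus soft gel for each tested gene of the MMP and TIMP members and of 8 related lists; each point is a gene, filled points passed limma's adjusted threshold of 0.05 and vertical bars are list medians. The members' median is -0.21, and Mmp14 is their only filled point.

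In bulk RNA, fewer cells of a type and less RNA per cell cannot be told apart, so the labelled cell type and other possible cells were checked by marker genes. Of 12 MSC markers all had a row and 11 passed the filter. Their summed level was 4369.9 to 4556.8 FPKM over the soft libraries and 4998.0 to 5185.7 over the stiff ones. Among them 1 rose, Vim (vimentin, from 1571.5 ± 78.2 to 2012.5 ± 51.5 FPKM, limma adjusted p = 0.0246), and Lepr was under the filter. Vim was also the most abundant gene in this sum. The log2 fold change was above 0 for 8 markers and below 0 for 3, Prrx1, Pdgfra and Pdgfrb. Of 16 macrophage markers 15 had a row, 12 passed the filter and none was at 0 in all libraries. Their summed level was 443.3 to 449.5 FPKM over the soft libraries and 391.5 to 420.4 over the stiff ones and did not overlap between the groups. Their median log2 fold change was -0.08, with 4 genes above 0 and 8 below, and the largest drop in FPKM was that of Lyz2 (lysozyme), at 148.9 ± 3.51 and 119.4 ± 8.38 FPKM (limma adjusted p = 0.0606), singled out after its value was seen. Cd68, a lysosomal protein, fell from 40.4 ± 3.47 to 27.7 ± 1.52 FPKM (limma adjusted p = 0.0246) and Cd53, a leukocyte tetraspanin, from 12.6 ± 1.15 to 8.20 ± 0.4385 FPKM (limma adjusted p = 0.0271), while Adgre1 (F4/80) rose from 69.0 ± 1.85 to 84.9 ± 2.24 FPKM (limma adjusted p = 0.0404). Of the other tested markers, Cd14 was at 59.6 and 60.5 FPKM in soft and stiff gel, and Fcer1g at 46.4 and 41.2. Tyrobp was at 32.8 and 27.3 FPKM, with all stiff libraries below the soft ones. Laptm5 was at 13.8 and 13.4 FPKM and Mrc1 at 9.99 and 9.57. The lowest were Csf1r at 4.81 and 4.87 FPKM, Aif1 at 2.84 and 3.26 and Ptprc at 2.79 and 2.50. Limma called none of them, and C1qa, C1qb and Cd163 were under the filter. With equal FPKM sums or after quantile normalization 3 macrophage markers were lower and none higher. Vim, Cd68 and Cd53 passed only without soft replicate 1 among the 6 fits that left out 1 library (highest adjusted p 0.138, 0.119 and 0.122), and Adgre1 passed in none of them (0.0610 to 0.164). The part of any macrophages in the values of Mmp12, Mmp9 or any member was not tested.

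Of 8 osteoclast markers 2 passed the filter, Ctsk (cathepsin K) at 198.6 ± 5.55 and 200.1 ± 2.66 FPKM and Acp5 at 34.0 ± 0.961 and 33.1 ± 0.680 FPKM. Neither was called by limma or voom, nor was either at an unadjusted p under 0.05, and Calcr and Dcstamp were listed at 0 throughout. Atp6v0d2, under the filter and not tested, averaged 1.36 ± 0.0736 FPKM in the soft group and 0.538 ± 0.143 in the stiff group. All its stiff libraries were below the soft ones, with between 9 and 33 reads behind each value. No other marker of this list had its groups apart. Of 6 endothelial markers 5 had a row and none passed the filter, the highest being Vwf at 0.275 and 0.235 FPKM and Tek at 0.223 and 0.210 FPKM.

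Among 8881 other genes averaging 5 FPKM or more, the 3 whose log2(FPKM + 1) followed Mmp14 most closely over the 6 libraries were Crispld2 (Pearson r = 0.994), Plekhg4 (0.991) and Tgfbi (0.990). Crispld2, which encodes a secreted protein, averaged 21.9 FPKM in the soft group and 19.0 in the stiff group. Plekhg4 was at 86.9 and 58.6 FPKM and Tgfbi, which encodes a secreted matrix protein induced by TGF-beta, at 155.0 and 118.1 FPKM. All 3 were lower in stiff gel like Mmp14, as genes picked by this correlation would be. These r describe a ranking over 2 groups that differ in level, and say nothing of a relation within a group.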

How the data were processed

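PolyA RNA was measured in 6 libraries, 3 per group, prepared with the QIAseq FX single-cell RNA kit, per the labels' protocols. The deposited table holds FPKM for 33589 genes; HTSeq, Cufflinks 2.1.1 and Bowtie 0.12.9 appear in the submitters' processing notes with the mouse builds mm10 and GRCm38, whereas the table carries rat Ensembl identifiers. Coordinates are printed as deposited, and RefSeq promoters were matched by symbol. Gene length, also as deposited by the authors, was used to recover reads: FPKM times length was a whole multiple of 1 step per library for 100% of values (within 0.0001). The groups were compared in limma 3.58.1 (R 4.3.3) on log2(FPKM + 1) over 12713 genes whose mean reached 1 FPKM, with no covariate, an intensity trend, and two-sided Benjamini-Hochberg adjusted p under 0.05. The pseudocount of 1 shrinks fold changes of genes at low level. The exact permutation test cannot go below p of 0.1 with 3 against 3 and was not used. Members and lists were chosen with earlier results of these data known. Named genes were all members, other MMP or TIMP genes over the filter, up to 4 called genes (or the 2 most abundant) per list, and the 3 genes most like each called member. One gene of a related list is not reported here. Alternatives changed the pseudocount, filter, scaling, variance model, weights and unit (voom with trimmed-mean factors on recovered reads), added a replicate block, or left out each library.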

Additional observations from a re-analysis of the deposited data

How the results depend on the processing

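Of 144 refits of a tested member, 118 kept its direction and side of the threshold, 7 lost a call (Mmp14), 11 gained one and 8 turned a sign. Genes called higher and lower over the whole table were 71 and 21 with no level filter, 85 and 27 with no intensity trend, 430 and 255 with array weights, 210 and 116 with voom on recovered reads, and 78 and 27 with the replicate block; leaving out 1 library gave 20 to 116 higher and 7 to 43 lower. Members called lower were 0 with no level filter or no intensity trend, 2 with genes of at least 5 FPKM, equal FPKM sums or quantile normalization (Mmp14 and Mmp19), 4 with voom, 5 with array weights and 0 to 1 when 1 library was left out. The 1 was Mmp14 without soft replicate 1 and Timp3 without stiff replicate 2. Fits that left out 1 library had fewer samples, yet without soft replicate 1 the whole table kept 116 higher and 43 lower. With no filter 20495 genes were tested. The cause of the changed counts was not tested for any setting. The sign of Timp1 and Mmp3 turned with equal FPKM sums (-0.030 and -0.011), quantile normalization (-0.034 and -0.0063), array weights (-0.0030 and -0.033) and without soft replicate 1 (-0.00079 and -0.020); leaving out 1 library gave at most 0.043 and 0.073. At equal FPKM sums the MMP sum in stiff gel was 5648.3, and the TIMP sum 3085.9 in soft and 2901.5 in stiff gel. The sources used here do not say whether replicate numbers pair the libraries. Deviations from group means correlated at 0.06, 0.12 and -0.08 for numbers 1 to 3, and at -0.18 to 0.14 between unlike numbers. Such weak values over 3 libraries per group cannot settle pairing. Mmp12, Mmp13 and Mmp3 were lowest in replicate 1 of both groups. The block lowered the limma adjusted p of Mmp2, Mmp3, Mmp12, Mmp13, Timp1 and Timp2, none to under 0.05. It raised that of Mmp14, Mmp19 and Timp3. With the block Mmp14 kept its call (adjusted p = 0.0460), as did Tnc, and Vim, Cd68, Cd53 and Adgre1 lost theirs. At least 537 reads lay behind every member value above 0.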
